A study of Mus musculus with 20 samples.

Results

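The 9 genes of epidermal ceramide and lipoxygenase metabolism described here are Elovl1, Elovl4, Cers3, Ugcg, Pnpla1, Abca12, Alox12b, Aloxe3 and Alox12e. They were chosen by name for their roles in the lipid barrier of the epidermis, and all 9 of 9 were found among the 22090 gene symbols of the count table. RNA-seq was done on back skin of female SKH-1 mice, which are hairless and prone to skin tumors after ultraviolet exposure, and the samples comprised 8 normal skin (NS), 8 actinic keratosis (AK) and 4 cutaneous squamous cell carcinoma (cSCC) tissues. The 8 mice were 7 months old when they were assigned to the groups; 4 were never irradiated and 4 were exposed to ultraviolet rays over the months that followed. Each irradiated mouse gave a normal piece and 3 lesions, so AK and cSCC tissues, and a part of NS, came from the same 4 mice. Which mouse gave each tissue, and which NS were irradiated, is not in the sample labels, so NS from irradiated and unirradiated skin were kept as 1 group. AK also joins lesions of differing grade. All tests treated the tissues as independent, and tissues from 1 mouse may be alike, which can make p-values too small within a group or too large between groups of the same mice.

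The outermost epidermis is sealed by lipids built around ceramides with exceptionally long acyl chains. ELOVL1 and ELOVL4 elongate fatty acids, CERS3 joins these chains to a sphingoid base, and PNPLA1 transfers linoleate onto the chain end to form acylceramide. UGCG adds glucose, and ABCA12 carries glucosylceramide into lamellar granules for secretion. ALOX12B and then ALOXE3 oxidise the linoleate, a step needed for attaching lipid to the corneocyte surface. Inherited loss of CERS3, PNPLA1, ABCA12, ALOX12B or ALOXE3 causes ichthyosis. Alox12e encodes a further lipoxygenase of mouse epidermis.

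The genes lie on 6 chromosomes in GRCm38 (GENCODE M21 annotation), and only the lipoxygenases are near each other. Aloxe3 (chr11:69125896-69149115, plus strand) ends 7873 bp before Alox12b (chr11:69156989-69169792, plus strand), and Alox12e (chr11:70315610-70322628, minus strand) lies further along the same chromosome. Abca12 (chr1:71242276-71414910, minus strand) has 53 exon blocks. Elovl4 is at chr9:83778692-83806277 (minus strand), Elovl1 at chr4:118428093-118432953 (plus strand) and Ugcg at chr4:59189257-59222833 (plus strand). Cers3 is at chr7:66743504-66823691 (plus strand) and Pnpla1 at chr17:28858411-28890309 (plus strand). Of the exonic bases of Pnpla1, 13.3% are shared with the antisense gene Pnpla1os, and 1.94% of those of Elovl1 are shared with Cdc20 on the opposite strand. The strand setting of the counting is not given in the sources used here, so reads of these overlaps cannot be assigned.

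RefSeq promoters (GRCm38.p6, 250 bases before to 50 after the start) matched 8 of the 9 genes, with 2 promoters for Elovl1 and no entry for Aloxe3. The promoters of Alox12e (chr11:70322481-70322780, minus strand) and Abca12 (chr1:71414861-71415160, minus strand) are shown because these genes were lower in cSCC than in both other groups, and that of Ugcg (chr4:59189300-59189599, plus strand) because the AK level of this gene lay on the other side of NS from most of the 9. Capitals mark CG dinucleotides, and each sequence reads 5′ to 3′.
Alox12e: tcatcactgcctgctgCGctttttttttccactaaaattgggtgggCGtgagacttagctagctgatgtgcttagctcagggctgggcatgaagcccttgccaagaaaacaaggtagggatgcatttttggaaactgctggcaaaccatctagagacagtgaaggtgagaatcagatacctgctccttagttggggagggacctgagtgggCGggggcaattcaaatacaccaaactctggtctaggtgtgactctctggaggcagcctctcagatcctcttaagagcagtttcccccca
Abca12: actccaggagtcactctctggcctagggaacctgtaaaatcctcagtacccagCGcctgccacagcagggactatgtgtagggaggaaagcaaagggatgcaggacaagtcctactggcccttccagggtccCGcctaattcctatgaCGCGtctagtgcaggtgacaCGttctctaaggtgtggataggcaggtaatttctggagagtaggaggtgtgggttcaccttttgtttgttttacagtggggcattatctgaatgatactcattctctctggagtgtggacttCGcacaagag
Ugcg: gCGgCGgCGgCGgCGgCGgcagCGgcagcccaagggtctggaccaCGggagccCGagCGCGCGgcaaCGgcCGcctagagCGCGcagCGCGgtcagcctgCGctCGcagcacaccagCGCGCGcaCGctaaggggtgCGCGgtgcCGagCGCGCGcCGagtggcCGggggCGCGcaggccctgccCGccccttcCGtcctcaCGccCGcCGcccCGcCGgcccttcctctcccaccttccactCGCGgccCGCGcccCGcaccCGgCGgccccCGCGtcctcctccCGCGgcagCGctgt
The Alox12e window held 3 CG dinucleotides and the Abca12 window 6, against 53 in the Ugcg window. Elovl4, not shown but also called lower in cSCC than in both other groups, had 35. The Elovl1 promoters had 20 and 6, Alox12b 15, Cers3 7 and Pnpla1 6. A relation of CG counts to changes in level was not tested. Over all 32851 promoters of the table the median was 7, with quartiles of 3 and 20, so Ugcg and Elovl4 were above the upper quartile and Alox12e was at the lower one. Motifs were searched on both strands. The AP-1 letters TGANTCA were in 0 of these 9 promoter windows and 7.81% of all promoters. The grainyhead letters AACCNGTT were in 0 of 9 windows and 2.09% of all. The ROR half-site AGGTCA was in 2 of 9 windows (Cers3 and the second Elovl1 promoter) and in 16.3% of all. These matches describe letters only.

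Total counts per library ranged from 775750 to 14055206, and 3 counts, the lowest level taken as detectable, corresponded to 0.224 to 3.78 CPM (counts divided by library totals adjusted with TMM factors) across libraries, for counting error only. The cSCC libraries stood apart among themselves. The summed level of 5 lung epithelial markers was 35527 CPM in cSCC replicate 20 and at most 51.7 CPM in any NS or AK library. Likewise, 5 heart muscle markers summed to 39227 CPM in cSCC replicate 21 and to at most 56.8 CPM in NS and AK. Values of the 9 genes in cSCC are therefore given with and without these libraries where this moved a call. The TMM factor of cSCC replicate 18 was 0.509, against 0.852 to 1.22 in the other 19 libraries, and this raised all CPM values of that library relative to its total count. General epithelial markers (12 genes, such as Cdh1 and Trp63) summed to 6516 to 12395 CPM in NS, 7735 to 12094 in AK and 2293 to 7946 in cSCC. Replicate 18 was the highest cSCC library for this sum in CPM, but on library totals alone replicate 19 was (4699 against 4041 counts per 1e6). In bulk tissue, fewer keratinocytes and less RNA per keratinocyte cannot be told apart.

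**Figure D1:**
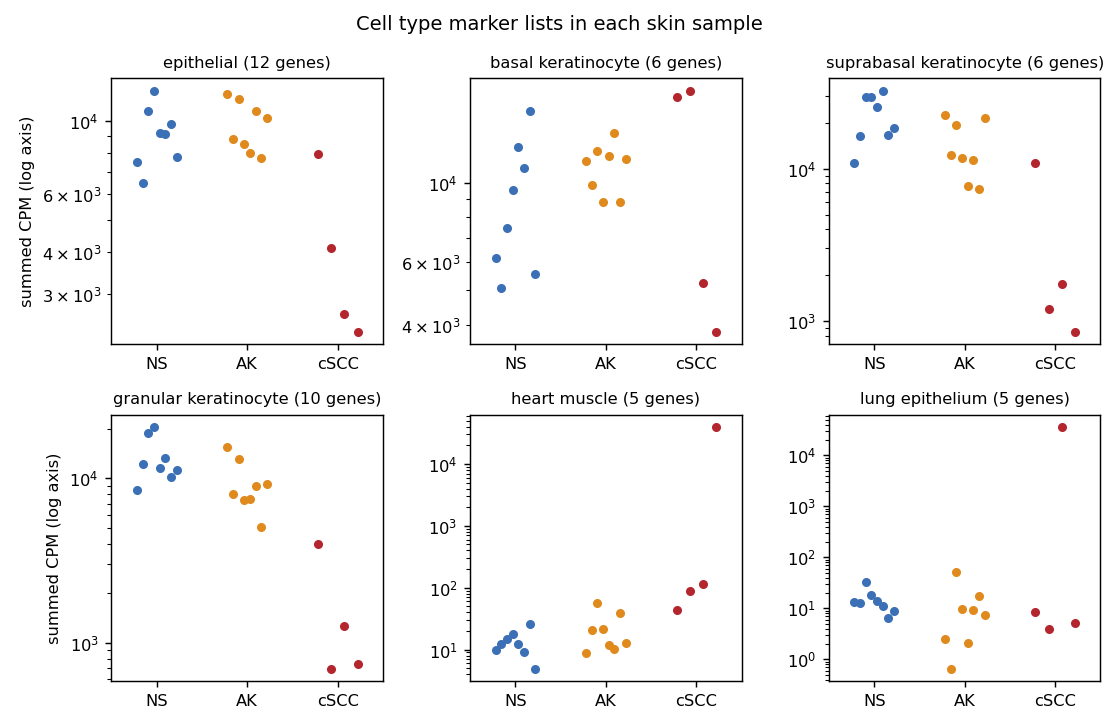
Summed CPM of 6 cell type marker lists (log axis) in each NS (n = 8), AK (n = 8) and cSCC (n = 4) library, each point 1 library. The cSCC libraries are low for granular markers (693 to 4010 CPM), and 1 cSCC library each is high for heart and for lung markers.

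In NS, the order of levels per kilobase of exon was led by Elovl4 at 276 ± 44.8 CPM per kb (SD, n = 8). Cers3 (133 ± 53.9) and Elovl1 (127 ± 58.5) came next, and Cers3 exceeded Elovl1 in 4 of 8 NS libraries, so this pair was not ordered. Ugcg followed at 45.1 ± 12.2 CPM per kb, above Alox12e (34.8 ± 24.8) in 6 of 8 libraries. Alox12e and Abca12 (27.8 ± 11.1) were also not ordered, with Alox12e higher in 4 of 8. Alox12b (20.2 ± 10.02), Aloxe3 (6.68 ± 3.10) and Pnpla1 (4.39 ± 1.78) closed the order, each above the next in 8 of 8 libraries. The elongase and ceramide synthase transcripts were thus the abundant ones, and the acyltransferase Pnpla1 was the scarcest. The place of Alox12b above Aloxe3 depends on the exon lengths used (2431 and 6397 bp). By counts alone, the ratio of Aloxe3 to Alox12b was 1.60, 1.0 and 1.24 in NS replicates 1, 2 and 5. In AK the per-kilobase order had Alox12e (10.4 CPM per kb) below Alox12b (15.9) in 6 of 8 libraries. In cSCC, Cers3 (68.3), Elovl4 (64.2) and Elovl1 (51.4 CPM per kb) overlapped, and Alox12b (10.4) was above Abca12 (3.32) in 4 of 4 libraries.

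**Figure D2:**
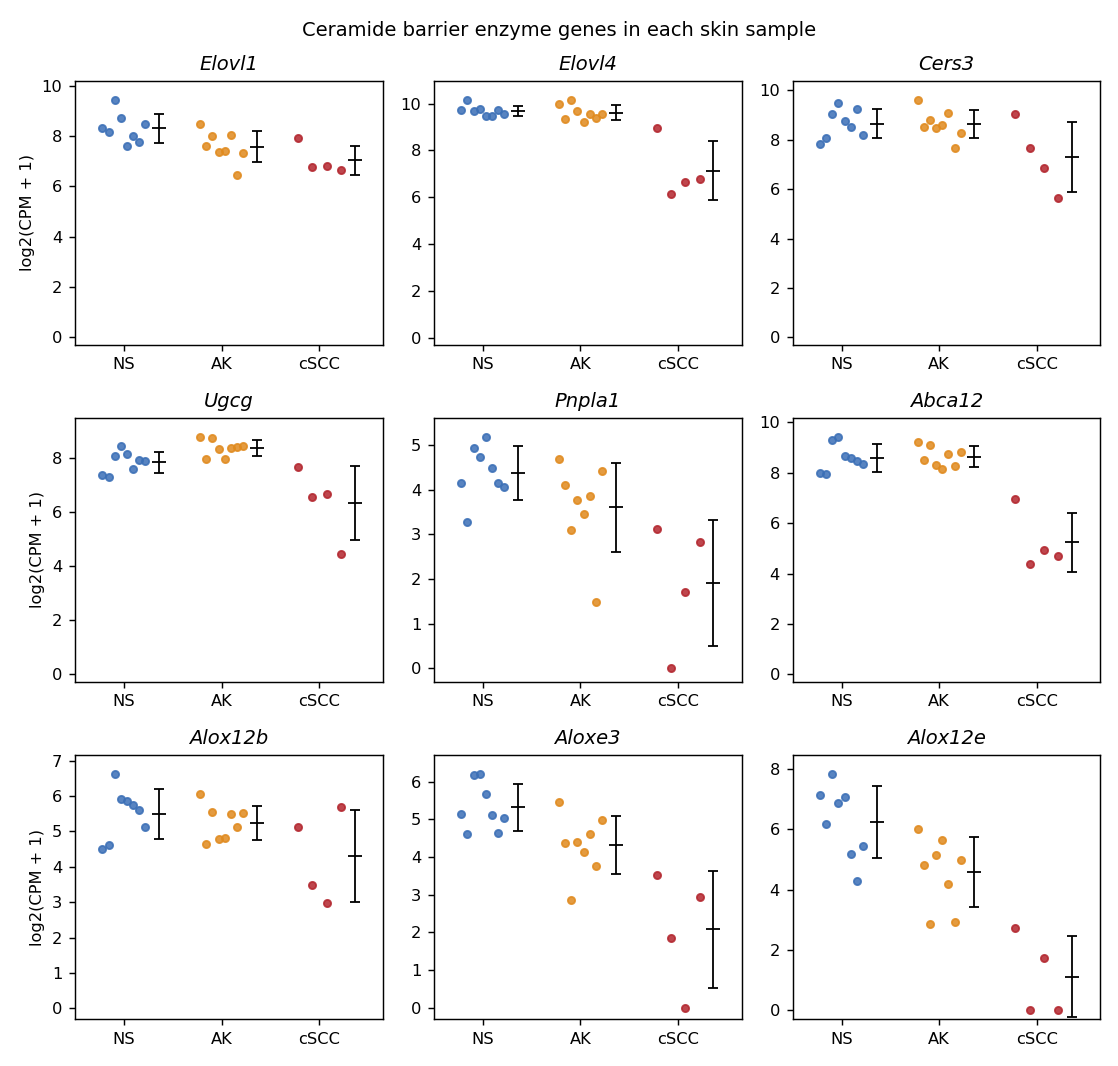
Level of each of the 9 genes, log2(CPM + 1), in every NS (blue, n = 8), AK (orange, n = 8) and cSCC (red, n = 4) library, with mean ± SD beside each group. Abca12, Elovl4 and Alox12e in cSCC lie below all NS and AK libraries, whereas Alox12b overlaps across the 3 groups.

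AK was compared with NS to ask how the precancerous lesion differed from normal skin. Of the 9 genes, 1 fell in AK, the lipoxygenase Alox12e, and 0 rose (edgeR; Ugcg alone was on the higher side, with an unadjusted p of 0.00804). Among all 11677 genes tested, 2.38% were called lower, where a call needed a Benjamini-Hochberg adjusted p under 0.05 in edgeR's quasi-likelihood test and a fold change above 1.5 or below 0.67. Alox12e ranged from 18.3 to 227 CPM in NS (median 93.6) and from 6.31 to 62.9 CPM in AK (median 29.1). The groups overlapped, and the NS spread was wide, with a coefficient of variation of 71.2%. NS replicates 1, 2, 4, 5 and 6 were at 70.7 to 227 CPM, above every AK library. NS replicates 7, 8 and 9, at 35.1, 18.3 and 43.0 CPM, lay within the AK range. Since the labels do not say which NS were irradiated, a relation of this split to irradiation was not tested. Its log2 fold change was -1.72 (SE 0.48, adjusted p = 0.0419), or 3.30-fold lower. This call was weak: it held in 4 of 16 fits that each left out 1 library (without NS replicates 7, 8 or 9 or AK replicate 10), and the adjusted p over the 16 ranged from 0.0172 to 0.1002. DESeq2 and limma voom kept it and added Aloxe3.

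AK did not lie wholly below NS for any gene (0 of 9), as 0.128% of all genes tested did. The other 8 genes did not pass the test in AK. Aloxe3 had a median of 34.3 CPM in NS (23.5 to 72.9) and 19.9 CPM in AK (6.31 to 42.8), with a log2 fold change of -0.96 (SE 0.31, adjusted p = 0.0701). For Elovl1 the medians were 305 and 182 CPM, and the log2 fold change was -0.76 (SE 0.27, adjusted p = 0.0939). These differences were of similar sign to that of Alox12e. Ugcg, the glucosylceramide synthase, was the exception in sign, with a median of 238 CPM in NS (156 to 344) and 334 CPM in AK (249 to 438). The log2 difference for Ugcg was 0.51 (SE 0.17, adjusted p = 0.0817), and it passed when the epithelial list served as the scaling reference, under which Alox12e did not (1 higher and 0 lower in place of 0 and 1). The log2 fold changes of Elovl4 (-0.09), Cers3 (-0.04) and Abca12 (-0.01) were near 0, and those of Cers3 and Abca12 turned positive with the epithelial reference. Those of Pnpla1 and Alox12b were -0.62 (SE 0.35) and -0.35 (SE 0.28). The median over the 9 genes was -0.35, against -0.04 over all genes tested. Granular keratinocyte markers, genes of the last living layer such as Flg and Lor, moved alongside: 3 of 10 were called lower in AK and 0 higher, and their summed level was 8479 to 20501 CPM in NS and 5027 to 15523 CPM in AK. Their part in these values was not tested.

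cSCC was compared with NS for the carcinoma against normal skin. Of the 9 genes, 6 fell and 0 rose, where 7.65% of 12097 genes tested were called lower. The transporter Abca12, the elongases Elovl4 and Elovl1, the acyltransferase Pnpla1 and the lipoxygenases Aloxe3 and Alox12e were lower. Ugcg, Cers3 and Alox12b were not called. The median log2 fold change of the 9 was -2.06, against 0.14 for all genes tested. All cSCC libraries were below all NS libraries for 5 genes (Elovl4, Pnpla1, Abca12, Aloxe3 and Alox12e), and the same was true of 5.73% of all genes tested.

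Abca12 stood at 122, 19.8, 29.6 and 24.8 CPM in cSCC replicates 18 to 21, and at 248 to 682 CPM (median 370) in NS. Replicate 18 was the highest cSCC library and still below every NS library. The log2 fold change was -3.03 (SE 0.54, adjusted p = 0.00321), or 8.16-fold lower. It was called in each alternative run and in each fit without 1 library. Without replicate 18 it was -4.02. Without replicates 20 and 21 the log2 fold change was -2.52 (adjusted p = 0.0268).

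Elovl4, the elongase of the longest chains, measured 497, 69.4, 100.1 and 109.7 CPM in the 4 cSCC libraries. NS ranged from 702 to 1122 CPM (median 831), a narrow range with a coefficient of variation of 16.2%. The groups did not overlap, and the log2 fold change was -2.06 (SE 0.49, adjusted p = 0.0114). Without replicates 20 and 21 it was -1.54 and no longer called (adjusted p = 0.0812), and without replicate 18 alone it was -3.11. Elovl1, which also extends very long chains, measured 241, 108.1, 111.5 and 99.6 CPM in cSCC and 197 to 695 CPM (median 305) in NS. Only replicate 18 reached the NS range, and on library totals alone it did not (123 counts per 1e6, lowest NS library 215). The log2 fold change of Elovl1 was -1.25 (SE 0.39, adjusted p = 0.0353), and the call was lost without any 1 of NS replicates 1, 4, 5 or 9 or cSCC replicates 19, 20 or 21, with adjusted p up to 0.0899, and without replicates 20 and 21 together (-0.97, adjusted p = 0.199).

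Among the lipoxygenases, Aloxe3 was at 10.4, 2.64, 0 and 6.62 CPM in cSCC, from 15, 6, 0 and 40 counts, and at 23.5 to 72.9 CPM (median 34.3) in NS. It did not overlap and was 7.89-fold lower, a log2 fold change of -2.98 (SE 0.60, adjusted p = 0.00553), and -2.75 without replicates 20 and 21 (adjusted p = 0.0193). Alox12e had 8, 0, 2 and 0 counts in the cSCC libraries, or 5.56, 0, 2.28 and 0 CPM. Only replicate 18 was above the level of 3 counts, so its log2 fold change of -6.05 (SE 1.12, adjusted p = 0.00376) gives a direction with a loosely set size. Without replicates 20 and 21 it remained called (adjusted p = 0.0202). Limma voom with sample weights did not call Alox12e (adjusted p = 0.145) or Aloxe3 (adjusted p = 0.0674). Alox12b, which acts just before Aloxe3, was at 34.0, 10.1, 6.83 and 50.6 CPM in cSCC and 21.7 to 97.4 CPM (median 50.2) in NS. Replicates 18 and 21 lay within the NS range (on library totals alone replicate 21 only), and Alox12b was not called (log2 fold change -0.85, SE 0.52, adjusted p = 0.267). Its sign turned to 0.50 with the epithelial list as the scaling reference, again not called.

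Pnpla1 measured 7.64, 0, 2.28 and 6.12 CPM in cSCC, from 11, 0, 2 and 37 counts, and 8.69 to 35.5 CPM (median 19.1) in NS. The groups did not overlap, but the margin was small. Its log2 fold change was -2.29 (SE 0.66, adjusted p = 0.0275), lost without cSCC replicate 20 (-2.17, adjusted p = 0.0548) and without 20 and 21 together (-2.59, adjusted p = 0.0741). It was also not called with limma voom or the epithelial reference, which was so for Elovl1 too. Cers3 measured 522, 203, 114.9 and 49.1 CPM in cSCC against 228 to 725 CPM (median 402) in NS, and Ugcg 203.5, 93.2, 100.1 and 20.5 CPM against 156 to 344 CPM (median 238). For both, replicate 18 was within the NS range and the other 3 libraries were below it. On library totals alone, replicate 18 was also below every NS library, at 266 counts per 1e6 for Cers3 (lowest NS library 277) and 104 for Ugcg (lowest NS library 173). Neither was called (Cers3 -0.92, SE 0.52, adjusted p = 0.227; Ugcg -1.13, SE 0.44, adjusted p = 0.0875). Both were called without replicate 18, at -1.79 (adjusted p = 0.0164) for Cers3 and -1.71 (adjusted p = 0.0142) for Ugcg. Both were also called when library size alone set the scale, at -1.46 (adjusted p = 0.0430) and -1.57 (adjusted p = 0.0224). Ugcg was called by limma voom too (-1.14, adjusted p = 0.0433).

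**Figure D3:**
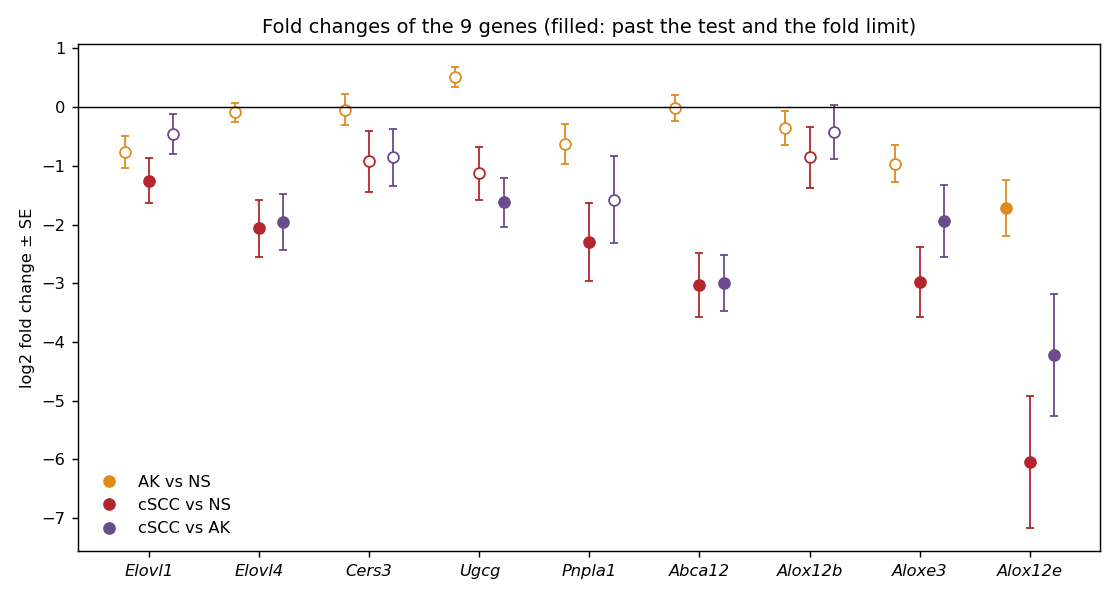
Log2 fold change ± SE of the 9 genes in AK vs NS (orange), cSCC vs NS (red) and cSCC vs AK (purple), from edgeR; filled points were called and open points were not. Alox12e, Abca12, Aloxe3 and Elovl4 have filled points in both cSCC comparisons.

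cSCC was then compared with AK for the carcinoma against its precursor lesion; this comparison shares the cSCC samples with the previous one and the AK samples with the first. Of the 9 genes, 5 fell and 0 rose, with 8.34% of 12032 genes tested called lower. The median over the 9 was -1.62, against 0.17 over all genes tested. All cSCC libraries were below all AK libraries for 4 genes (Elovl4, Ugcg, Abca12 and Alox12e), as for 6.84% of all genes tested. AK levels ranged from 283 to 596 CPM for Abca12, 584 to 1135 CPM for Elovl4 and 249 to 438 CPM for Ugcg. These AK ranges lay wholly above the cSCC values given before. The log2 fold changes were -2.99 for Abca12 (SE 0.48, adjusted p = 0.0022), -1.95 for Elovl4 (SE 0.47, adjusted p = 0.0107) and -1.62 for Ugcg (SE 0.42, adjusted p = 0.0142). Alox12e had a log2 fold change of -4.23 (SE 1.04, adjusted p = 0.0112) on counts near the detection level. That of Aloxe3 was -1.94 (SE 0.62, adjusted p = 0.0334), a call lost without any 1 of AK replicates 10, 13, 15 or 17 or cSCC replicate 19, with adjusted p up to 0.0807. Without cSCC replicates 20 and 21, 3 of the 5 remained called: Abca12 at -2.51, Ugcg at -1.13 and Alox12e at -3.58. Elovl4 was then at -1.45 (adjusted p = 0.0856) and Aloxe3 at -1.76 (adjusted p = 0.0916). Without replicate 18, Elovl4 was at -3.05 and Abca12 at -4.03. Limma voom did not call Alox12e or Aloxe3 (adjusted p = 0.138 and 0.0989), and the epithelial reference did not call Aloxe3 (adjusted p = 0.184) or Ugcg (adjusted p = 0.0511).

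Pnpla1 (log2 fold change -1.58, SE 0.74), Cers3 (-0.86, SE 0.49), Elovl1 (-0.46, SE 0.34) and Alox12b (-0.42, SE 0.46) were not called between cSCC and AK, with adjusted p from 0.131 to 0.536. Without cSCC replicate 18, Cers3 was called at -1.76 (adjusted p = 0.0121), and with library size alone at -1.32 (adjusted p = 0.0478). With the epithelial list as the scaling reference, Elovl1 (0.49) and Alox12b (0.74) changed sign without being called. That scaling moved the median of all genes tested to 1.18, and to 1.25 for cSCC vs NS, and these values lay below that median.

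Ratios of pairs of genes within a library do not depend on how libraries are scaled, and 6 pairs were compared in the 3 comparisons (18 tests, two-sided exact permutation over samples, log2 of counts + 0.5). The successive lipoxygenases parted: the log2 ratio of Aloxe3 to Alox12b was -1.005 to 0.677 in NS (median -0.13), -2.73 to -0.29 in AK (median -0.65) and -1.68, -1.85, -3.70 and -2.92 in cSCC replicates 18 to 21. Every cSCC library was thus below every NS library. The lowest values rest on few counts: 0 Aloxe3 and 6 Alox12b counts in cSCC replicate 20, and 5 and 36 in AK replicate 12. The size in cSCC replicate 20 depends on the added 0.5. The difference of cSCC from NS was -2.37 (exact permutation p = 0.00202, the smallest that 495 splits allow, adjusted p = 0.00909), and from AK -1.59 (exact permutation, adjusted p = 0.0227). AK and NS differed by -0.77 (exact permutation, adjusted p = 0.0385). In that comparison, AK replicate 12, the lowest, moved the difference to -0.52 when left out (exact permutation, adjusted p = 0.0739), and the call was also lost without any 1 of NS replicates 1, 2, 4, 5, 6 or 9 or AK replicates 15 or 16. Without cSCC replicates 20 and 21 the cSCC vs AK difference was -0.82 and not called (exact permutation, adjusted p = 0.178).

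Abca12 relative to Ugcg, the transporter against the enzyme that makes its cargo, was lower in both lesions. In AK vs NS, Ugcg was on the higher side (log2 fold change 0.51, not called) and Abca12 was near 0 (-0.01). In cSCC vs NS both were on the lower side, Abca12 at -3.03 and Ugcg at -1.13 (not called). The log2 ratio of Abca12 to Ugcg was 0.45 to 1.25 in NS (median 0.65), -0.14 to 0.55 in AK (median 0.38) and -0.73, -2.22, -1.74 and 0.27 in cSCC. cSCC replicate 21, where Ugcg itself was lowest, was the only cSCC library within the AK range. AK differed from NS by -0.49 (exact permutation p = 0.000622, adjusted p = 0.00909), cSCC from NS by -1.87 (exact permutation, adjusted p = 0.00909) and cSCC from AK by -1.37 (exact permutation, adjusted p = 0.0208). The AK vs NS difference in Abca12 to Ugcg stayed past the threshold without any 1 library.

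Elovl4 relative to Elovl1 went in opposite directions in the lesions. The log2 ratio was 0.23 to 1.96 in NS (median 1.43), 1.49 to 2.93 in AK (median 1.98) and 1.04, -0.64, -0.15 and 0.14 in cSCC. All cSCC libraries were below all AK libraries. AK was higher than NS by 0.65 (exact permutation, adjusted p = 0.0385), a call lost without any 1 of NS replicates 1, 4, 5 or 9 or AK replicates 12, 13, 16 or 17. cSCC differed from NS by -1.27 (exact permutation, adjusted p = 0.0182) and from AK by -1.92 (exact permutation, adjusted p = 0.00909). Without cSCC replicates 20 and 21, the difference from NS was -1.16 and did not pass (exact permutation, adjusted p = 0.05, at the threshold). Alox12e relative to Alox12b was lower in cSCC than in NS (-5.45, exact permutation, adjusted p = 0.0145) and AK (-3.99, exact permutation, adjusted p = 0.0242). These sizes depend on the added 0.5, since Alox12e had 0 counts in 2 cSCC libraries. The cSCC vs AK call was lost without cSCC replicate 19 (-3.70, exact permutation, adjusted p = 0.0529), without 21 (-2.47, exact permutation, adjusted p = 0.0509) and without 20 and 21 together (-3.35, exact permutation, adjusted p = 0.05). In AK vs NS this ratio did not pass (-1.46, exact permutation, adjusted p = 0.0531), but did so without any 1 of NS replicates 7 or 8 or AK replicate 14. The log2 ratio of Alox12e to Alox12b was -0.58 and -1.38 in NS replicates 7 and 8 and positive in the other NS libraries. Cers3 relative to Ugcg passed in AK vs NS (-0.56, exact permutation, adjusted p = 0.0364) and not in the cSCC comparisons, except in cSCC vs AK without cSCC replicate 20 (0.99, exact permutation, adjusted p = 0.0385). Pnpla1 relative to Cers3 passed in 0 of 3 comparisons, but did so in cSCC vs NS without cSCC replicate 21 (-2.73, exact permutation, adjusted p = 0.0182) or without 20 and 21 together (-3.60, exact permutation, adjusted p = 0.0462). It also passed in AK vs NS without any 1 of NS replicates 2 or 8 or AK replicates 11 or 17, with adjusted p from 0.0240 to 0.0452 (exact permutation). The AK vs NS call for Cers3 to Ugcg was lost without any 1 of NS replicates 4, 5 or 8 or AK replicates 12, 13, 16 or 17.

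**Figure D4:**
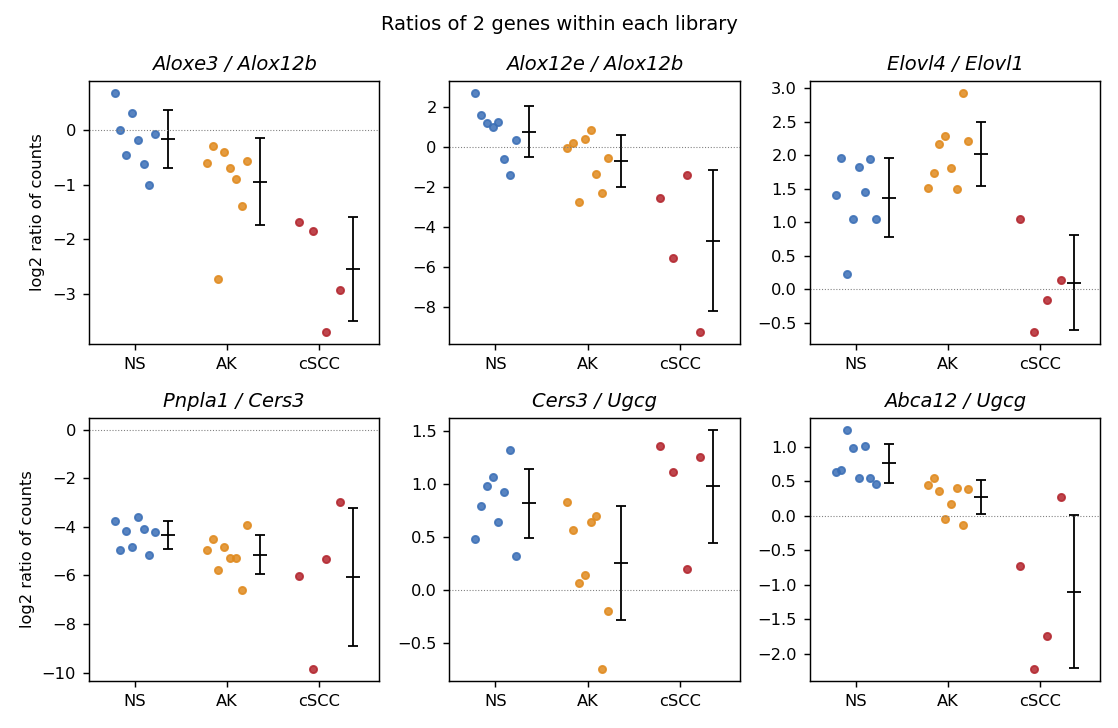
Log2 ratio of the counts of 2 genes in each library for 6 pairs, NS (n = 8), AK (n = 8) and cSCC (n = 4), with mean ± SD beside each group; the dotted line marks equal counts. For Aloxe3 to Alox12b all cSCC points are below all NS points.

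Since general epithelial genes were also lower in cSCC (4 of 12 called lower and 0 higher vs NS), each gene was set against the mean log2 count of that list in its own library (27 tests, two-sided exact permutation over samples). These 12 genes mark epithelium in general, so in cSCC replicate 20, with its lung markers, this scale may include lung epithelium. The share was not tested. On this scale the median difference of cSCC from NS over all genes tested was 1.05, and 4.12% of them were lower at an unadjusted p under 0.05, as were 5 of the 9. For cSCC vs AK the median was 0.97 and the share 3.86%, with 5 of the 9 lower, and for AK vs NS 0.04 and 9.32%, with 4 of the 9 lower and 1 higher. After adjustment, 5 of the 9 genes were lower per epithelial level in cSCC than in NS: Aloxe3 by -2.47, Abca12 by -2.28, Pnpla1 by -1.96, Elovl4 by -1.45 and Alox12e on the log2 scale, with adjusted p from 0.00909 to 0.0318 (exact permutation). The value for Alox12e (-5.55) depends on the added 0.5 and gives a direction only. Ugcg (-0.41), Cers3 (-0.25), Elovl1 (-0.18) and Alox12b (-0.10) did not pass. The decrease of Pnpla1 was lost without NS replicate 4 or any 1 of cSCC replicates 18, 19 or 20, and without replicate 19, which had 0 counts, it was -0.69 (exact permutation, adjusted p = 0.120). Elovl4 was lost without replicates 20 and 21 together (-1.62, exact permutation, adjusted p = 0.0800), although the difference was not smaller. With only cSCC replicates 18 and 19 left, few splits remain and p cannot be very small. This loss therefore cannot tell whether the call rests on replicates 20 and 21. Against AK, cSCC was lower for Alox12e (-3.89), Abca12 (-2.38), Elovl4 (-1.42) and Ugcg (-1.01), with adjusted p from 0.00909 to 0.0218 (exact permutation), and Ugcg was lost without cSCC replicate 21 (-0.59, exact permutation, adjusted p = 0.0716). Aloxe3 did not pass against AK (-1.49, exact permutation, adjusted p = 0.0545), and did so without AK replicate 12 or cSCC replicate 21. Elovl1 was on the higher side (0.50, exact permutation, adjusted p = 0.140) and passed without cSCC replicate 19 (0.72, exact permutation, adjusted p = 0.0468). In AK vs NS, Ugcg was higher by 0.60 (exact permutation, adjusted p = 0.00839) and Aloxe3 differed by -0.98 (exact permutation, adjusted p = 0.00909), and both kept their call without any 1 library. Alox12e (-1.66), Pnpla1 (-0.76) and Elovl1 (-0.68) were also lower in AK, with adjusted p from 0.0318 to 0.0399 (exact permutation). These 3 were lost in 5, 10 and 10 of the 16 tests that each left out 1 library. With the basal list as the reference in place of the epithelial one, Elovl1 (-0.73, exact permutation, adjusted p = 0.0890) and Pnpla1 (-0.80, exact permutation, adjusted p = 0.0511) did not pass in AK vs NS. That reference added Cers3 (-1.02, exact permutation, adjusted p = 0.0258) and Ugcg (-1.18, exact permutation, adjusted p = 0.0182) in cSCC vs NS. It likewise added Cers3 (-1.01) and Aloxe3 (-2.22) in cSCC vs AK, each with an adjusted p of 0.0291 (exact permutation).

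Markers of keratinocyte differentiation moved with these genes in cSCC. Of 10 granular markers, 6 were called lower than in NS and 0 higher (median log2 fold change -2.56), and of 6 suprabasal markers, such as Krt1 and Krt10, 5 were lower and 0 higher (median -3.00). Basal markers such as Krt5 and Krt14 had 0 of 6 called by edgeR (0 at an unadjusted p under 0.05), with a median of 0.38. The granular list summed to 4010, 693, 1270 and 741 CPM in cSCC replicates 18 to 21, and replicate 18 was the highest cSCC library for this list as for Abca12, Elovl4 and Cers3, also on library totals alone. Suprabasal markers summed to 10886 to 32668 CPM in NS, 7402 to 22644 in AK and 843 to 10873 in cSCC. All suprabasal and granular markers had counts in every library, except that at most 1 granular marker was at 0 in a cSCC library. Of the sebocyte markers, 4 of 9 tested were lower and 0 higher, and of 5 endothelial markers 4 were higher and 0 lower, with sums of 27.6 to 85.7 CPM in NS and 59.0 to 439 CPM in cSCC. In AK vs NS, 2 of 9 sebocyte markers were lower and 0 higher (median -0.78). Without cSCC replicates 20 and 21, edgeR called 6 of 10 granular, 3 of 6 suprabasal and 4 of 10 sebocyte markers lower than in NS, and 0 of 5 endothelial markers in either direction (0 at an unadjusted p under 0.05). In the same fits, edgeR called 0 of 6 basal markers vs NS (3 at an unadjusted p under 0.05, median 1.04). Against AK it called 2 of 6 basal markers higher and 0 lower. The part of these lists in the results for the 9 genes was not tested.

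The rest of the barrier lipid pathway was described through 41 further genes of fatty acid elongation, sphingoid base synthesis, ceramide turnover and lipid transport, chosen by function. In AK vs NS, 2 of 38 tested were lower (the elongase Elovl6, -0.97, and the alkaline ceramidase Acer1, -0.86) and 0 higher. Neither was called without any 1 of NS replicates 1, 2, 4 or 5 or AK replicates 12 to 17. In cSCC vs NS, 13 of 39 tested were lower and 2 higher, where 926 of 12097 genes tested were lower and 1414 higher, and the median log2 fold change of the list was -0.37. With the epithelial list as the scaling reference this split was 6 lower and 14 higher, and that of all genes 358 lower and 6507 higher. Without cSCC replicates 20 and 21 it was 10 lower and 1 higher of 39. The lower genes were led by Elovl3 (-5.10, SE 1.05), an elongase, and Fa2h (-4.23, SE 0.85), the fatty acid hydroxylase. Acer1 (-3.60), the serine palmitoyltransferase subunit Sptlc3 (-3.36), Elovl6 (-2.95), Elovl7 (-2.46) and the ichthyosis gene Nipal4 (-2.17, SE 0.25) followed. In NS, Elovl3, Fa2h and Elovl6 were each highest in replicates 1 and 2, which also had the highest sebocyte sums (2834 and 4934 CPM). The same 2 libraries had the highest NS sums of adipocyte markers (713 and 1017 CPM) and fibroblast markers (5955 and 7692 CPM). In cSCC replicate 20 the sebocyte sum was 1922 CPM and Elovl3 was at 9.10 CPM. However, 4 of the 10 sebocyte markers had 0 counts in that library. Its adipocyte sum was also the highest of the 20 libraries (1188 CPM), so its sebocyte sum may not reflect sebocytes. The part of sebaceous, fat or fibroblast tissue in Elovl3, Fa2h and Elovl6, also for Elovl6 in AK vs NS, was not tested. Nipal4 was at 15.4 to 18.8 CPM in the 4 cSCC libraries and 51.6 to 96.9 CPM in NS, with the tightest cSCC values among these examples. In cSCC vs AK, 12 of 38 were lower and 3 higher, where 1004 of 12032 genes tested were lower and 1931 higher. With the epithelial reference it was 5 lower and 13 higher (all genes 293 and 6405), and without cSCC replicates 20 and 21 it was 9 lower and 1 higher of 39.

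Cers2, the ceramide synthase of wide tissue distribution, was higher where Cers3 was not called. Its cSCC levels were 33.3, 141, 138 and 100.2 CPM, with 7.20 to 36.5 CPM (median 23.3) in NS and 7.57 to 35.0 CPM (median 24.4) in AK. Replicate 18 lay within the ranges of NS and AK, and the other 3 libraries were above both. The log2 fold change of Cers2 was 2.18 (SE 0.42, adjusted p = 0.00429) vs NS and 2.37 (SE 0.40, adjusted p = 0.00248) vs AK. Cers2 stayed called without replicates 20 and 21 (1.92 and 2.09, adjusted p = 0.0294 and 0.0132). Ptpla, an older symbol of the dehydratase gene Hacd1, was also called higher (1.77 vs NS and 1.74 vs AK). Its cSCC levels were 34.0, 10.99, 13.7 and 75.6 CPM, against 3.73 to 19.1 CPM in NS, so that replicates 19 and 20 lay within the NS range. Without replicates 20 and 21 Ptpla was not called (1.11 vs NS, adjusted p = 0.191). The acid sphingomyelinase gene Smpd1 was called higher vs AK (2.01), with 352 CPM in replicate 21 and 9.67 to 43.2 CPM in the other cSCC libraries. Without replicates 20 and 21 Smpd1 was at -0.96 vs AK (adjusted p = 0.153) and was called lower than in NS (-1.57, adjusted p = 0.0461). Of the 4 other lipoxygenase genes, Alox5, Alox8 and Alox12 were tested by edgeR with 0 calls in each comparison (1 of the 9 tests, Alox5 in AK vs NS, had an unadjusted p under 0.05), and Alox15 was too low to be tested.

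**Figure D5:**
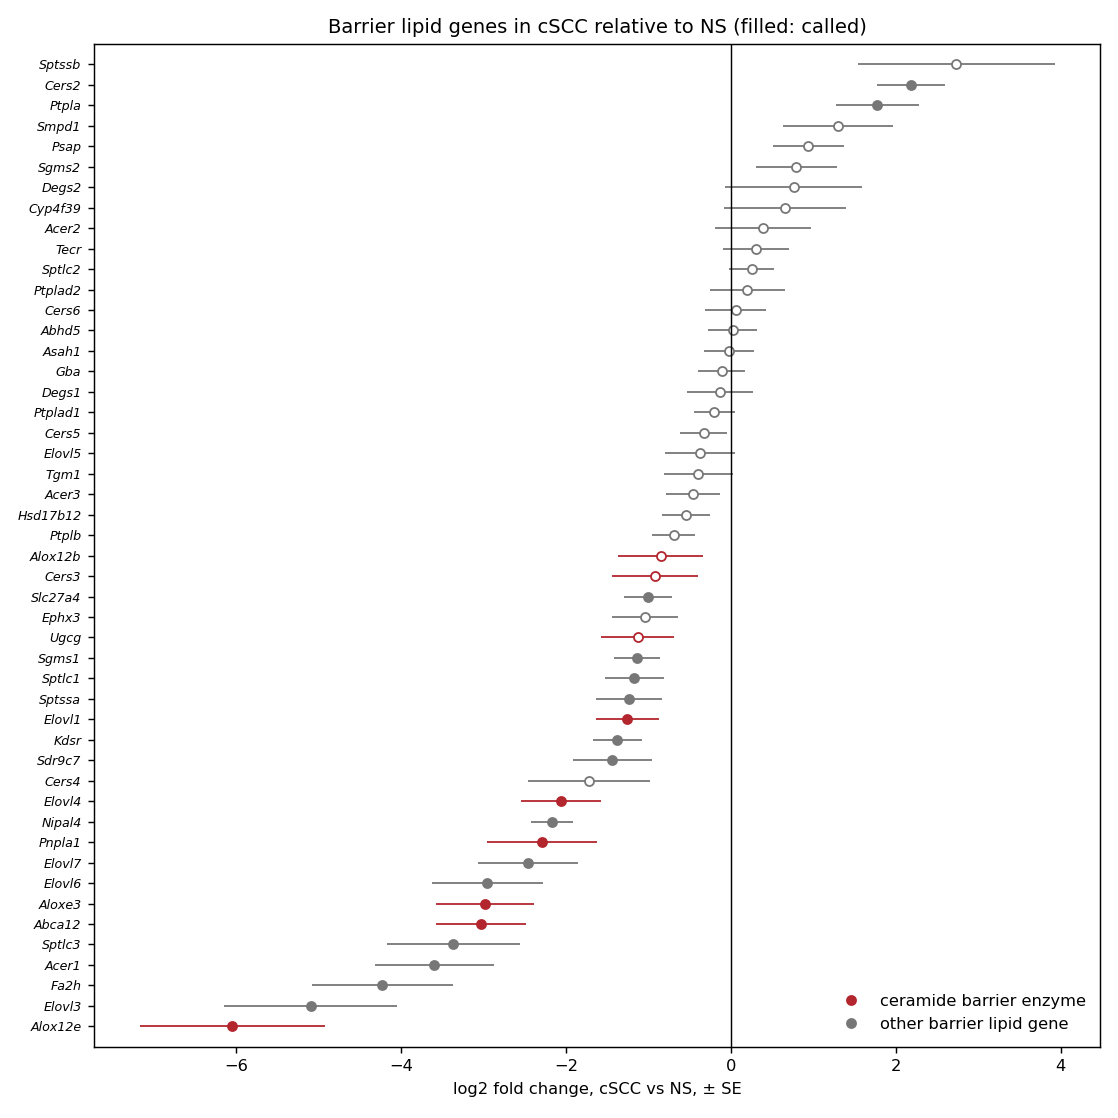
Log2 fold change ± SE in cSCC vs NS from edgeR for the 9 genes (red) and 39 further barrier lipid genes that were tested (grey), ordered by value; filled points were called. Alox12e, Elovl3 and Fa2h are at the low end, and Cers2 is the highest called gene.

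Across the 20 libraries, after removing group means, the 9 genes varied together to differing degrees. Over 36 pairs, Pearson's r of log2(CPM + 1) ranged from 0.03 to 0.82 with a median of 0.49; all pairs share library depth and keratinocyte content, and the values are a description. Cers3 and Ugcg had the highest r (0.82), followed by Cers3 and Abca12 (0.75) and Elovl4 and Abca12 (0.75). The order depended on the measure. By Spearman's rho, Pnpla1 and Aloxe3 were highest (0.87, r = 0.63), with Cers3 and Ugcg at 0.70 and Elovl4 and Abca12 at 0.50. The neighbours Alox12b and Aloxe3 had r = 0.69, whereas Alox12b and Alox12e had r = 0.08. Of 12725 further genes ranked, those most like the mean profile of the 9 were Gabarapl2 (r = 0.91), Cysrt1 (0.91), Them5 (0.90), Aadacl2 (0.90) and Lypd6b (0.90), over 20 samples.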

How the data were processed

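RNA-seq of 20 SKH-1 mouse back skin tissues was used, 8 NS, 8 AK and 4 cSCC, grouped by their labels. Per the paper, the authors used Trimmomatic 0.36 for trimming, HISAT2 for alignment (GRCm38) and StringTie for quantification; the submitters' processing notes name HISAT2 2.0.5, featureCounts 1.5.2 and the builds hg19 and mm9. The deposited values are raw counts per gene symbol, not normalized. Of 22090 genes, 18160 had a count, and 0 columns were left unused. Libraries of a group differed by a chi-square of at least 11.3 per degree of freedom (62 pairs), so no library was counted as deposited more than once. How many reads a symbol lost to overlapping or similar genes is unknown.

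The 9 genes, the gene lists and the tests were chosen with earlier results of these data known. Named genes were the 9, up to 8 called pathway genes per comparison by size of change, the other lipoxygenases, marker genes and the 5 most alike genes. CPM used TMM factors. Groups were compared in pairs with edgeR 4.0.16 (R 4.3.3) quasi-likelihood tests after filterByExpr, and p-values were adjusted by Benjamini-Hochberg over all genes tested; all 9 genes passed this filter in each comparison, and SE is the log2 fold change over the root of F. The fit was tested on simulated counts. Ratios used counts + 0.5 and exact permutation over 12870 (8 against 8) or 495 (4 against 8) splits. Levels per kilobase used the GENCODE exon length. Alternatives were DESeq2 1.42.0, limma 3.58.1 voom with quality weights, the study's per-gene unadjusted test, library size alone, upper quartile factors, the epithelial list as scaling reference, gene filters, no fold limit, 1 fit of 20 samples, other pseudocounts, the basal list as reference, and leaving out libraries. Python 3.11.15, numpy 2.4.6, pandas 2.3.3, scipy 1.17.1 and matplotlib 3.10.9 were used.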

Additional observations from a re-analysis of the deposited data

Results flagged for a closer look

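Of 27 sets tested (9 genes in 3 groups), 1 held a library far from the others of its group: Elovl1 in cSCC, where replicate 18 was at 241 CPM and the other 3 libraries were at 99.6 to 111.5 CPM. Chance flags about 1 in 20 such sets. The TMM factor of replicate 18 was 0.509, and on library totals alone Elovl1 was at 123, 123, 126 and 84.8 counts per 1e6 in replicates 18 to 21, so that replicate 18 no longer stood apart.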

How the results depend on the processing

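No paired analysis was possible because the labels do not say which mouse gave each tissue. No result for the 9 genes turned its direction past the test. Counts of the 9 genes called (main: 1 in AK vs NS, 6 in cSCC vs NS, 5 in cSCC vs AK) moved as follows. In AK vs NS, DESeq2 and limma voom each gave 2, the study's unadjusted rule 3, and no gene filter or 1 fit of all 20 samples 0, where 2875 genes of the main fit had an unadjusted p under 0.05. Over all genes tested, 278 of 11677 were lower in the main fit and 630 of 17761 with DESeq2. Limma voom gave 522 of 11677 lower, the study's rule 1082 of 11706, no gene filter 195 of 17761 and 1 fit 4 of 12847. Limma voom gave 3 in each cSCC comparison (Abca12, Elovl4 and Ugcg, the last not called by edgeR in cSCC vs NS). Leaving out cSCC replicates 20 and 21 also gave 3 in each, but not the same genes. These were Abca12 and Alox12e in both, with Aloxe3 vs NS and Ugcg vs AK. In cSCC vs AK, the epithelial scaling reference and the requirement of 10 counts in every sample also gave 3. Leaving out 1 library gave 0 to 3, 4 to 8 and 4 to 6 in the 3 comparisons. For pathway genes in AK vs NS (main 2), the epithelial reference gave 1, limma voom 4, the study's rule 5, and no filter or 1 fit 0; for cSCC vs AK (main 15), 10 counts in every sample gave 7. Leaving out 1 library gave 0 to 3, 11 to 17 and 12 to 19 pathway genes. Of 6 ratios (main 4 in each), 1 to 5, 4 to 5 and 3 to 5 were called without 1 library. In cSCC vs AK, 2 were called without replicates 20 and 21, where fewer permutation splits remain. Per epithelial level (main 5, 5 and 4), leaving out 1 library gave 2 to 5, 4 to 5 and 4 to 5, and the basal list as reference gave 3 in AK vs NS. The basal reference added Cers3 and Ugcg in cSCC vs NS, and Cers3 and Aloxe3 in cSCC vs AK. Library size alone moved the median log2 fold change of all genes to -0.13, -0.17 and -0.09. The cause of these moves was not tested. With 4 cSCC libraries and as few as 775750 counts in 1 of them, Alox12e, Aloxe3 and Pnpla1 in cSCC rest on 0 to 40 counts per library.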
